A study of Mus musculus with 18 samples.

Results

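Complement was examined through 9 genes, C3, C4b, Cfb, C1ra, C1s1, Serping1, Cd55, Cd59a and C2, which encode components and regulators of the cascade. They were taken by Ensembl identifier from the endothelial table, which lists 55401 genes, and by symbol from the EO771 table, which lists 22612, and all 9 were present in both. The 18 libraries formed 6 groups of 3. Blood vessel endothelial cells (BECs) came from the fat pad of C57BL/6 mice, wild-type and without tumours (BEC normal), and from EO771 primary tumours (BEC tumour). High endothelial cells (HECs) came from inguinal lymph nodes of mice without tumours (HEC normal) and from nodes that the labels call lymph node metastases (HEC tumour). Endothelial cells were sorted as CD45-CD31high, and HECs were the PNAd+ cells among them. EO771, a mouse breast cancer line, was treated with vehicle or with 12-HETE, a lipid that the lipoxygenase ALOX12 makes from arachidonic acid. Cell type and tissue cannot be told apart in the endothelial groups, nor can a tumour in the mouse be told apart from metastasis in the node.

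Complement is a set of plasma and membrane proteins that tag surfaces for removal and can perforate membranes. In the classical pathway, C1q binds a surface and its partner proteases C1r and C1s cleave C4 and C2, whose fragments join into an enzyme that cleaves C3. In the alternative pathway, factor B, the product of Cfb, takes the place of C2. The C1 inhibitor (Serping1) blocks C1r and C1s, CD55 takes apart the enzymes that cleave C3, and CD59 stops assembly of the membrane attack complex. The liver makes most plasma complement, and many other cells, endothelium and carcinoma cells among them, make components locally and raise several of them after interferon or inflammatory cytokines.

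Genes are described as called where the adjusted p was below 0.05 and the log2 fold change exceeded 1 in size. Levels of the endothelial libraries are given as normalised values, since the deposited values rise in steps of about 3.7 and 1 unit is not 1 fragment, and those of EO771 as normalised counts. Total values ran from 56.4 to 79.4 M per endothelial library (15.2 to 21.4 M after division by the step) and from 17.3 to 18.6 M per EO771 library. The pan-endothelial markers summed to between 2333 and 3496 CPM in the 12 endothelial libraries, although Cldn5 was at 232 to 280 CPM in BEC normal and at most 2.01 CPM elsewhere. Against BEC normal, 4 of the 10 markers were called lower in BEC tumour and 3 in HEC normal. Of all genes tested, 10.8% and 15.1% were called lower in these comparisons. The high endothelial list summed to at least 975 CPM in each HEC library and to at most 11.8 CPM in each BEC library. Nearly all of the sum in HECs was Glycam1, Chst4 and Fut7. Its other members did not set HECs apart. Ccl21a was at 0 in every HEC library. Gcnt1 was at 4.1 to 6.08 CPM in HECs against 4.56 to 7.87 CPM in BECs, and Enpp2 overlapped too. Set against BECs, 3 of the 6 members were called up in HECs without tumour and 0 down, and with tumour 3 up and 1 down. Chst4 was at 0.06 CPM in HEC normal replicate 2 against 291 and 297 CPM in the others of that group. Fut7 was at 221 CPM in HEC tumour replicate 3 against 1021 and 1011 CPM in the others of its group. Markers of myeloid cells were present in BEC tumour. All 11 macrophage and myeloid markers were higher there than in BEC normal, with sums of 1720 to 2413 CPM against 108 to 129 CPM, and the CD45 gene Ptprc, whose product the sort selected against, was at 5.95 to 12.8 CPM against at most 0.362 CPM. The T cell sum there, 22 to 40.9 CPM against at most 0.44 CPM in the other endothelial groups, was nearly all Cd4 (21 to 40.1 CPM), while the defining markers Cd3d, Cd3e, Cd3g, Cd8a and Trac were each at most 0.401 CPM. The B cell sum, 8.35 to 11 CPM against at most 0.92 CPM, was mostly Cd22 (4.62 to 8.3 CPM), with the defining Ms4a1 at most 0.592 CPM. Fibroblast and pericyte sums were highest in BEC normal, at 388 to 406 and 704 to 712 CPM. Most of that pericyte sum was Acta2 (621 to 622 CPM), with Kcnj8 at 0 and Myh11 at most 0.284 CPM. The fibroblast sum was mostly Mmp2, Col1a1 and Col3a1, and Dpt and Lum were at 0 in BEC normal. With tumour in BECs, 3 of 8 fibroblast markers tested were called up and 5 down. Of 6 pericyte markers tested, 4 were called down and 0 up. In bulk RNA, fewer cells of a type and less RNA per cell cannot be told apart.

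The 9 genes did not move as a block. Between HEC normal and BEC normal, 2 of 9 were called higher (C4b and Cfb) and 2 lower (C3 and C2), where 17.1% of the 18511 genes tested were called higher and 15.1% lower, shares close to those of the 9. Between HEC tumour and BEC tumour, none was called higher and 3 lower (C3, Serping1 and C2), against 11.2% higher and 10.7% lower of all genes. With tumour in HECs, 1 was called higher (C1s1) and 1 lower (Cd59a), against 4.58% and 3.21%. With tumour in BECs, 4 were called higher (C4b, Cfb, C1s1 and Serping1) and none lower, against 12.4% and 10.8%. For the tumour change in HECs less that in BECs, none was called higher and 3 lower (C4b, Cfb and Serping1), against 11.2% and 12.1%. In the 3 directions where DESeq2 called none, edgeR called 0 as well, and 1 gene, Cd55, had an unadjusted p under 0.05 in each. The median log2 fold change of the 9 was −0.35, −0.91, −0.09, 0.88 and −0.47 in these 5 comparisons, in the order given, while that of all genes tested lay between −0.002 and 0.019. The plot of normalised values shows these patterns library by library. The comparisons share libraries, so their values are not independent of each other.

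**Figure D1:**
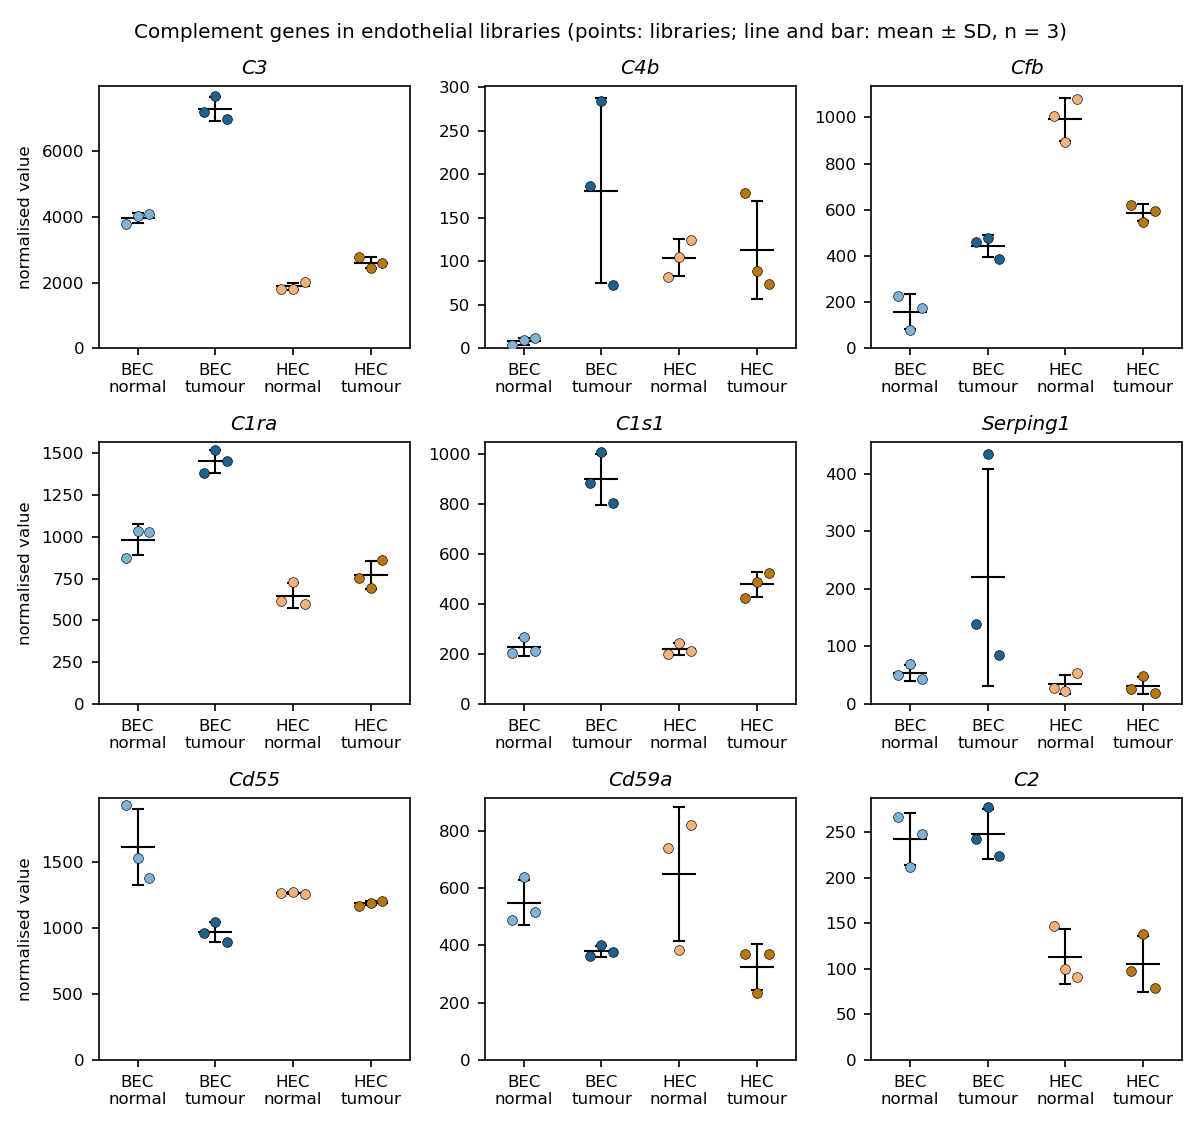
Normalised value (y axis, linear, from 0) of each complement gene in the 12 endothelial libraries. Points are libraries, horizontal lines are means of 3 and bars are ± SD. C3 and C1s1 stand highest in BEC tumour, Cfb stands highest in HEC normal at 894 to 1078, and C4b is near 0 in BEC normal.

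The proteases C1r and C1s start the classical pathway, and their genes C1ra (6:124512405-124523443, plus strand, GRCm38) and C1s1 (6:124530345-124542359, minus strand) are neighbours. C1s1 stood at normalised values of 203, 267 and 213 in BEC normal and 886, 1009 and 806 in BEC tumour. It stood at 200, 245 and 211 in HEC normal and 425, 490 and 524 in HEC tumour. The libraries of each tumour group thus all lay above those of the matching normal group, and the normal groups overlapped. C1s1 rose with tumour in BECs by a log2 fold change of 1.99 ± 0.17 (SE; adjusted p = 4.21e-31) and in HECs by 1.13 ± 0.17 (adjusted p = 4.72e-10). The change in HECs less that in BECs was −0.85 on the log2 scale (adjusted p = 0.00117), under the 2-fold limit. C1s1 shares 18.4% of its exon bases with Gm16567 on the other strand, and it has a near copy, C1s2. With C1s1 and C1s2 summed, the difference between cell types passed both limits (−1.04, adjusted p = 1.27e-05).

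C1ra was less variable. Its normalised values averaged 982 ± 92.5 in BEC normal and 1452 ± 68.7 in BEC tumour libraries, as against 649 ± 73.1 and 772 ± 84.5 in the normal and tumour HEC groups (SD, n = 3 each). The BEC groups did not overlap each other or the HEC groups, while the HEC groups overlapped. C1ra was called in none of the endothelial comparisons: its log2 fold change was 0.57 between the BEC groups (adjusted p = 2.78e-05), −0.60 between HEC and BEC normal (adjusted p = 1.06e-05) and −0.91 between HEC and BEC tumour (adjusted p = 6.88e-12), each short of 2-fold.

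C4b (17:34728380-34743882, minus strand), which encodes the C4 that C1s cleaves, showed the largest log2 fold changes of the 9 with tumour in BECs and between the normal cell types. Its normalised values were 3.53, 9.41 and 11.2 in BEC normal, which corresponds to 1, 2 and 3 steps of the deposited scale. They were 186, 284 and 72.4 in BEC tumour, 82.2, 105 and 124 in HEC normal, and 178, 88.8 and 73.1 in HEC tumour. BEC normal lay below every other library, and the other 3 groups overlapped. C4b was called higher in BEC tumour than in BEC normal (4.51 ± 0.62 on the log2 scale, adjusted p = 3.5e-12) and higher in HEC normal than in its BEC counterpart (3.71 ± 0.63, adjusted p = 1.18e-08). As a ratio of summed steps these were 24.2-fold (95% exact interval 10.9 to 67.0, counting error only) and 13.9-fold (6.15 to 39.1). Between HEC tumour and HEC normal the log2 fold change was 0.12 (adjusted p = 0.905), and the tumour change in HECs less that in BECs was −4.38 ± 0.84 (adjusted p = 8.87e-07).

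The near copy C4a stood at 13.2, 28.2 and 26.4 in BEC normal and 44.5, 79.5 and 55.8 in BEC tumour libraries, as against 80.1, 67.2 and 49.7 in HEC normal and 120, 118 and 69.7 in HEC tumour. Like C4b it was called higher in BEC tumour (1.42, adjusted p = 0.00331) and in HEC normal (1.55, adjusted p = 0.00102) than in BEC normal. Counting may have split reads between the copies. With C4b and C4a summed, the 3 calls of C4b held at smaller sizes, 2.98 for BEC tumour, 2.48 for HEC normal and −2.63 for the difference between cell types.

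C2, which joins C4 in the enzyme that cleaves C3, lies at 17:34862604-34898265 on the minus strand. It followed cell type more than tumour. Normalised values were 266, 211 and 248 in BEC normal and 242, 277 and 224 in BEC tumour, and the BEC groups overlapped. They were 147, 99.7 and 90.8 in HEC normal and 97.0, 138 and 78.6 in HEC tumour, and all 6 HEC libraries lay below all 6 BEC libraries. C2 was called lower in HECs without tumour (−1.10 ± 0.28, adjusted p = 0.000156) and with tumour (−1.24, adjusted p = 2.74e-05). Without HEC normal replicate 3 the former was −0.97 and short of 2-fold. The tumour change was 0.04 in BECs (adjusted p = 0.93) and −0.10 in HECs (adjusted p = 0.835).

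C3 (17:57203970-57228136, minus strand), on which all pathways meet, was the most abundant of the 9 per length in every endothelial group, from 366 normalised values per kb of exon in HEC normal to 1419 in BEC tumour. Its normalised values were 3790, 4027 and 4077 in BEC normal and 7202, 7703 and 6987 in BEC tumour libraries, as against 1816, 1816 and 2012 in HEC normal and 2781, 2429 and 2607 in HEC tumour. The 4 groups stood in the order BEC tumour, BEC normal, HEC tumour, HEC normal with no overlap between neighbours. C3 was called lower in HEC than in BEC libraries without tumour (−1.08 ± 0.08, adjusted p = 6.48e-42) and with tumour (−1.49, adjusted p = 4.17e-81). The tumour comparisons gave 0.88 in BECs (adjusted p = 1.35e-29) and 0.47 in HECs (adjusted p = 3.21e-08), each under 2-fold, and the difference between them was −0.41 (adjusted p = 0.000608).

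The sequence before the C3 start is shown because C3 passed a test in both the endothelial and the EO771 data, and that before the Cd59a start because it alone held an interferon-type motif among the genes with an entry. Both come from RefSeq (GRCm38.p6), run 5′ to 3′ on the strand of the gene and end at the base before the start. Promoters were matched for 5 of the 9 genes, C3, C1ra, C1s1, Cd55 and Cd59a, and C1s1 has 2 starts. Capitals mark a match to GAAANNGAAA, the interferon-stimulated response element.
C3 (chr17:57228137-57228386, minus strand): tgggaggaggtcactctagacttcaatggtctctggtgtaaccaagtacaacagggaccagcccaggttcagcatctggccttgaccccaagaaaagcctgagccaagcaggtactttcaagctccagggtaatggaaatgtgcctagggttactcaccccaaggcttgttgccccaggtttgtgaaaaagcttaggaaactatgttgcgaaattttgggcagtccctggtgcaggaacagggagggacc
Cd59a (chr2:104095551-104095800, plus strand): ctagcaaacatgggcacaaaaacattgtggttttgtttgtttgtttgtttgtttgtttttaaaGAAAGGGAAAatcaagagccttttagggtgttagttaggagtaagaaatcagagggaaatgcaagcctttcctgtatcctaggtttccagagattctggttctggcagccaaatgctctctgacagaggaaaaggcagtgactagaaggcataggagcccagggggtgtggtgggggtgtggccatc
In all, 3 motifs were searched on both strands in windows from 250 bases before to 50 bases after each start. GAAANNGAAA was in 3.44% of all 32851 windows and, among the 5 genes with an entry, in that of Cd59a. TTCNNNGAA, the gamma-activated sequence, was in 8.3% of windows and in that of C1ra, 32 bases after the start. GGGNNNTTCC, the NF-kB motif, was in 5.56% of windows and in none of the 5 genes. A match to letters is a description and not evidence of binding.

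Cfb (17:34856374-34862518, minus strand), factor B of the alternative pathway, moved with tumour in opposite directions by value in the 2 cell types. Normalised values were 224, 77.7 and 174 in BEC normal and 461, 477 and 388 in BEC tumour libraries, as against 1008, 894 and 1078 in HEC normal and 619, 547 and 595 in HEC tumour. The order was HEC normal, HEC tumour, BEC tumour, BEC normal, with no overlap between neighbours. Cfb was called higher in HEC normal than in its BEC counterpart (2.64 ± 0.29, adjusted p = 8.32e-19) and rose with tumour in BECs (1.47 ± 0.29, adjusted p = 1.9e-06). In HECs the value was −0.76 (adjusted p = 0.0252), under 2-fold, and the difference between cell types was called (−2.23 ± 0.41, adjusted p = 2.79e-07). Between HEC and BEC tumour libraries the log2 fold change was 0.41 (adjusted p = 0.227).

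Reads of Cfb and C2 may be shared with Gm20547, a gene model on the same strand that covers 79.5% of the exon bases of Cfb and 42.8% of those of C2. Gm20547 held a deposited value of 106 in BEC normal replicate 2, where Cfb held 66, and at most 24 in any other endothelial library. With Cfb and Gm20547 summed, the 3 calls of Cfb remained, at 2.32, 1.14 and −1.89.

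Serping1 (2:84765387-84775444, minus strand), the inhibitor of C1r and C1s, was low and uneven. Normalised values were 51.1, 69.4 and 42.7 in BEC normal and 139, 434 and 85.4 in BEC tumour libraries, as against 27.4, 22.4 and 53.5 in HEC normal and 26.6, 48.4 and 19.9 in HEC tumour. BEC tumour lay above the other groups, and BEC tumour replicate 2 stood far above the rest of its group. Serping1 was called higher in BEC tumour than in BEC normal (2.01 ± 0.63, adjusted p = 0.00329) and lower in HEC tumour than in BEC tumour (−2.79 ± 0.64, adjusted p = 3.96e-05), and the tumour change in HECs less that in BECs was −2.14 ± 0.90 (adjusted p = 0.04). Without BEC tumour replicate 2 these became 1.05 (adjusted p = 0.117), −1.82 (adjusted p = 0.00454) and −1.17 (adjusted p = 0.23). The call on the difference between cell types was also lost with edgeR (adjusted p = 0.0601), after division by the step (adjusted p = 0.057) and without each of BEC normal replicates 1 and 3, HEC normal replicate 3 and HEC tumour replicates 1 and 3 (adjusted p from 0.0733 to 0.145).

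Cd55 (1:130439027-130462744, minus strand), the membrane protein that takes apart the C3-cleaving enzymes, was called in no endothelial comparison. Its normalised values were 1931, 1531 and 1374 in BEC normal and 962, 1043 and 895 in BEC tumour libraries, as against 1264, 1269 and 1259 in HEC normal and 1169, 1185 and 1202 in HEC tumour. No neighbouring groups overlapped, in the order BEC normal, HEC normal, HEC tumour, BEC tumour. The log2 fold change with tumour was −0.74 in BECs (adjusted p = 4.01e-08) and −0.09 in HECs (adjusted p = 0.634), and their difference was 0.65 (adjusted p = 0.00121). Cd55 thus lay lowest in the group where C3, C1ra and C1s1 lay highest, with every one of its tumour changes under 2-fold. Cd55b, its near copy, was at 0 in all 18 libraries.

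Cd59a (2:104095801-104115354, plus strand), whose product blocks the membrane attack complex, stood at 489, 638 and 517 in BEC normal and 361, 400 and 377 in BEC tumour libraries, as against 740, 383 and 820 in HEC normal and 371, 232 and 370 in HEC tumour. All HEC tumour libraries lay below all HEC normal libraries, although HEC normal replicate 2 stood close to them. Cd59a was called lower in tumour than in normal HECs at the edge of the 2-fold limit (−1.0 ± 0.29, adjusted p = 0.00235). That call was lost, with log2 fold changes from −0.80 to −0.99, with library totals as size factors, with a replicate block, with Cd59a and Cd59b summed, after division by the step, and without HEC normal replicate 1, HEC normal replicate 3 or HEC tumour replicate 2. Without HEC normal replicate 2, the library low in Chst4, it was −1.27 (adjusted p = 3.9e-07). In BECs the tumour comparison gave −0.53 (adjusted p = 0.109). The near copy Cd59b was at 41.4, 28.2 and 46.7 in BEC normal, at 0 in BEC tumour and at most 17.7 in any HEC library.

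Leaving out HEC normal replicate 2 changed none of the calls of the 9 genes in the 3 comparisons that use that group. C4b stayed at 3.71 and Cfb came to 2.72, C3 to −1.04 and C2 to −1.02 between the normal cell types, and C1s1 to 1.22 with tumour in HECs.

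**Figure D2:**
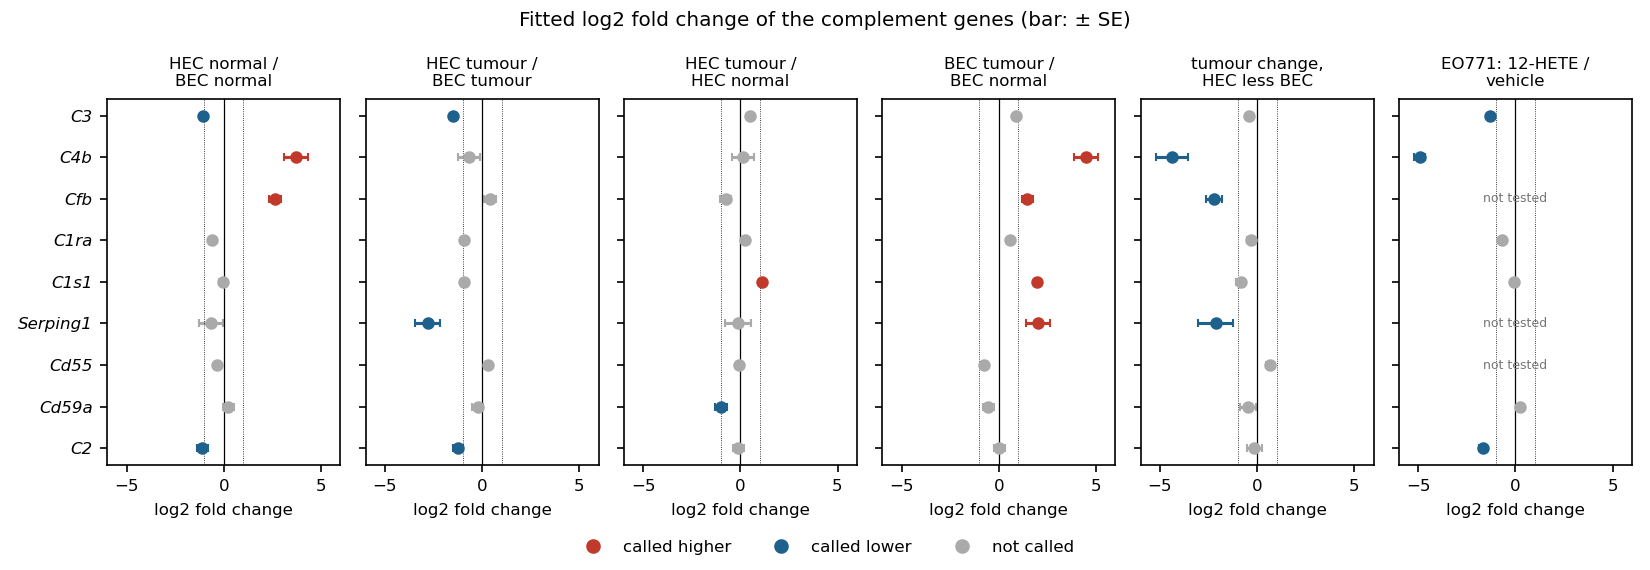
Log2 fold change (x axis) of each complement gene in the 6 comparisons, with bars of ± SE; red marks genes called higher, blue genes called lower and grey genes not called, and dotted lines mark 2-fold. BEC tumour against BEC normal holds 4 called higher and none lower, and the EO771 comparison holds 3 called lower among 6 tested.

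In EO771 cells the question was what 12-HETE does to tumour cells, and 3 of the complement genes fell. C4b stood at 499, 438 and 476 normalised counts with vehicle and at 20.5, 10.8 and 14.8 with 12-HETE. C2 stood at 266, 233 and 204 with vehicle and at 66.8, 73.9 and 80.7 with 12-HETE. C3 stood at 1442, 1765 and 1270 with vehicle and at 678, 565 and 558 with 12-HETE. In each of the 3 the treated libraries lay below all vehicle libraries. The log2 fold changes were −4.94 ± 0.26 for C4b (adjusted p = 8.45e-78), −1.67 ± 0.20 for C2 (adjusted p = 1.79e-15) and −1.31 ± 0.16 for C3 (adjusted p = 7.3e-16). Of the 6 genes tested, 3 were thus called lower and none higher, where 7.79% of the 11602 genes tested were called lower and 2.38% higher. No gene of the 6 was higher at an unadjusted p under 0.05 with DESeq2, and edgeR called 0 higher.

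The proteases of C1 and the regulator Cd59a were not called. C1ra stood at 824, 681 and 763 with vehicle and at 523, 465 and 428 with 12-HETE, without overlap, and its log2 fold change of −0.68 (adjusted p = 3.01e-06) was under 2-fold. C1s1, the most abundant of the 9 per length in EO771 cells (589 normalised counts per kb with vehicle), stood at 1901, 1845 and 1784 with vehicle and at 1826, 1723 and 1775 with 12-HETE, and the groups overlapped (−0.06, adjusted p = 0.61). Cd59a averaged 165 ± 22.2 with vehicle and 193 ± 18.8 with 12-HETE (SD, n = 3 each), also with overlap (0.22, adjusted p = 0.314).

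Cfb, Serping1 and Cd55 had a mean count under 10 and were not tested. Cfb held counts of 6, 19 and 14 with vehicle and of 1, 0 and 0 with 12-HETE, 39 against 1 in all, a ratio of 38.6 (95% exact interval 6.54 to 1564, counting error only). Fitted without the filter on low values, Cfb gave −5.15 (adjusted p = 0.00112). Serping1 and Cd55 held at most 1 count in any EO771 library, so that no change was detectable at this depth. EO771 cells thus held C4b, C2, C3, C1ra, C1s1 and Cd59a transcripts but next to none of the regulators Serping1 and Cd55.

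**Figure D3:**
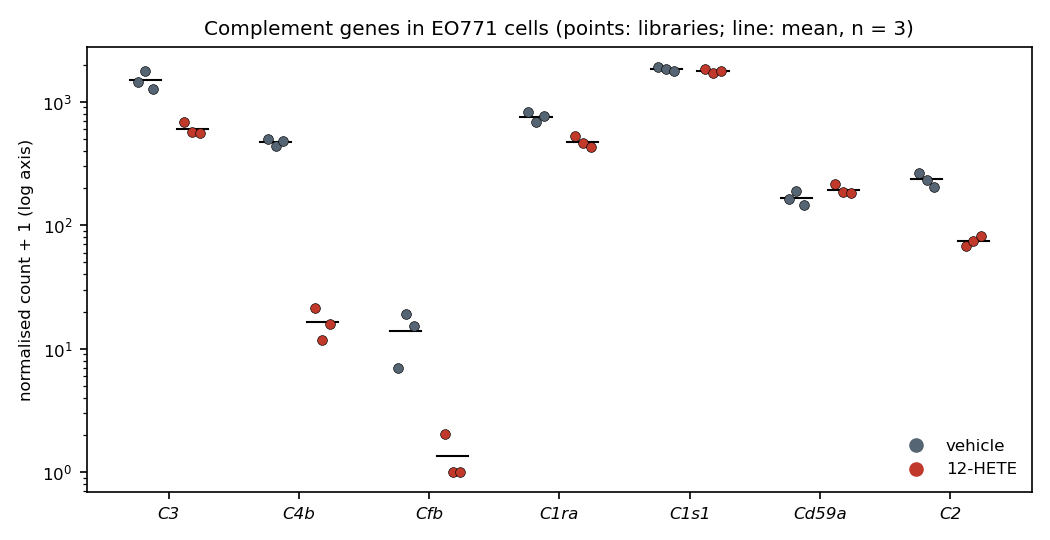
Normalised count plus 1 (y axis, log scale) of 7 complement genes in EO771 libraries given vehicle (grey) or 12-HETE (red); points are libraries and lines are means of 3. C4b lies at 438 to 499 with vehicle and at 10.8 to 20.5 with 12-HETE before 1 is added, whereas the groups overlap for C1s1 and Cd59a.

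The 48 other complement genes on the list included initiators, the C3 and C4 step, the terminal pathway, receptors and regulators, of which 36 could be tested in endothelial cells. With tumour in BECs, 17 of the 36 were called higher and 2 lower, against 12.4% and 10.8% of all genes tested, with a median of 1.16 on the log2 scale. Of the 36, 8 reached the mean value of 10 needed for the test only through BEC tumour, and 7 of these (C1qa, C1qb, C1qc, C5ar1, C6, Cfd and Vsig4) are among the 17, so the filter fixed part of that count and median and of those of the other comparisons that use BEC tumour. With tumour in HECs, 3 were called higher and 1 lower, against 4.58% and 3.21% (median 0.52). For the difference between cell types, 4 were called higher and 13 lower, against 11.2% and 12.1% (median −0.74). Between HEC and BEC libraries without tumour, 9 were called higher and 8 lower, against 17.1% and 15.1%, not far from the shares of all genes (median −0.12). With tumour, 10 were called higher and 16 lower, against 11.2% and 10.7% (median −0.59). The filter fixed part of these counts too. Without BEC normal, 2 genes would fall under it, Cd59b and Susd4, and both were called lower in HEC normal. Without HEC normal 3 would (C4bp, C8a and Cfi), of which C4bp and Cfi were called higher there. Without HEC tumour 3 would (C4bp, C8a and Masp2), of which C8a and Masp2 were called higher than in BEC tumour.

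C1q, the surface-binding part of C1, was high in BEC tumour alone, and its 3 genes passed the filter only through that group. C1qa stood at 6887, 6231 and 3847 in BEC tumour, C1qb at 8829, 8881 and 5427, and C1qc at 9514, 8296 and 4951. None of the 3 exceeded 4.43 in any other endothelial library. Taking 3 steps per library as the largest level that a value of 0 allows, C1qa was at least 509-fold and C1qc at least 684-fold higher in BEC tumour than in BEC normal. Among the receptors of the C3a and C5a fragments, C3ar1 rose by 2.99 ± 0.25 (adjusted p = 6.83e-31), from 448 to 504 to between 2329 and 5069. C5ar1, which passed the filter only through BEC tumour, stood at most at 7.05 in BEC normal and between 788 and 1457 in BEC tumour. C5ar2, the other receptor of C5a, was at most 9.56 in any endothelial library and was not tested. Itgb2, a chain of the receptors for cleaved C3, rose by 1.41 (adjusted p = 3.2e-15), and Cfp, the stabiliser properdin, by 2.81 ± 0.20 (adjusted p = 3.11e-42). The C1s1 copy C1s2 rose by 4.28 (adjusted p = 4.42e-17) from at most 11.5 to between 134 and 137. In this list C1qa, C1qb, C1qc and Itgam are also myeloid markers, so the myeloid sums above include them. In C1qa, C1qb, C1qc, C3ar1, C5ar1 and Itgb2, BEC tumour replicate 3 was the lowest of its group. The same held for each myeloid marker outside complement, Adgre1, Cd68, Csf1r, Fcer1g, Lyz2, Ptprc and Tyrobp. Of the 9 genes, C3, C4b, Cfb, C1s1, Serping1, Cd55 and C2 were lowest of their group in the same library, and C1ra and Cd59a in replicate 1. The share of all genes that were lowest in replicate 3 was not computed. In replicate 3 fibroblast markers summed to 47.3 CPM, against 68.3 and 77.8 CPM in the others of the group. Epithelial markers summed to 90.1 CPM there, against 16.7 and 20.6 CPM. The part of myeloid, fibroblast and epithelial RNA in the changes of the 9 genes was not tested.

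**Figure D4:**
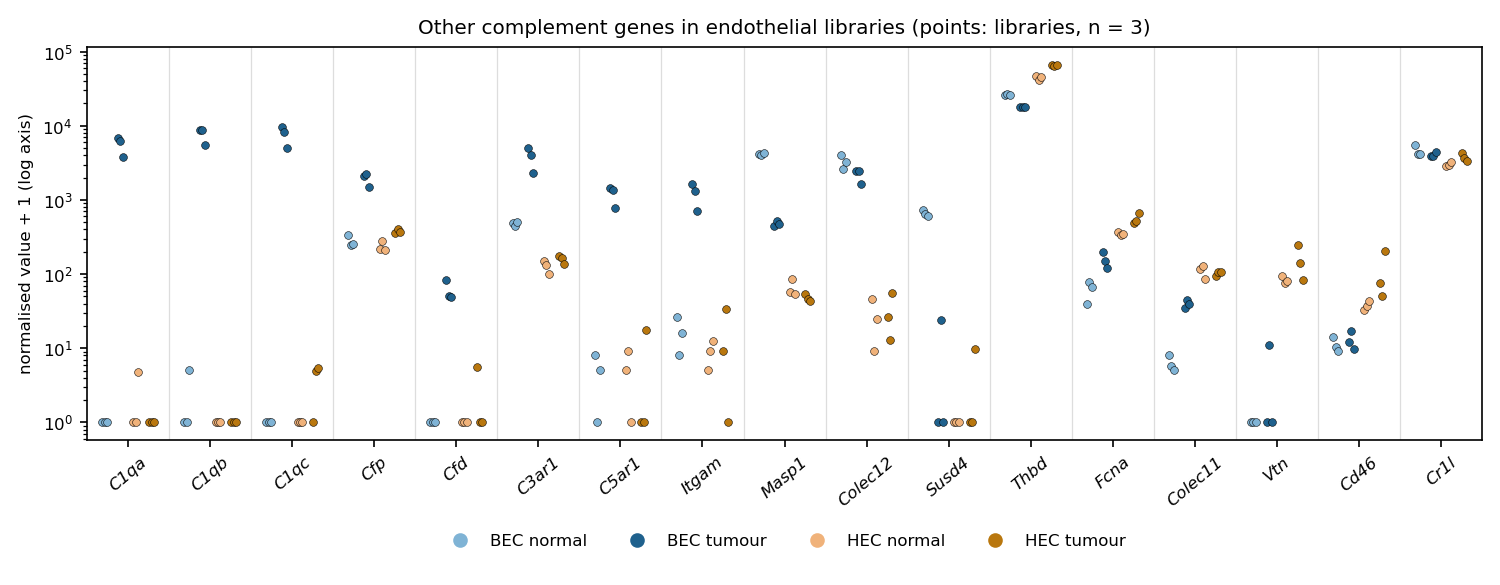
Normalised value plus 1 (y axis, log scale) of other complement genes in the 12 endothelial libraries; points are libraries, coloured by group. C1qa, C1qb and C1qc lie at 3847 or more in BEC tumour and at most at 4.43 elsewhere, Masp1 and Susd4 stand highest in BEC normal, and Thbd stands highest in HEC tumour.

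Masp1 and Susd4 stood highest in BEC normal. Masp1, a protease of the lectin pathway, stood at 4108, 4036 and 4316 in BEC normal and at 442, 512 and 469 in BEC tumour (−3.13 ± 0.13, adjusted p = 1.35e-133), and it was at most 84.5 in HECs. Susd4, a membrane regulator, stood at 611 to 731 in BEC normal and at most at 22.8 elsewhere. Fibroblast and pericyte sums were also highest in BEC normal, and their part in these values was not tested. Other genes of the list were high in both BEC groups. Colec12, a membrane collectin, stood at 1636 to 4006 in BEC libraries and was at most 54.2 in HECs (−6.99 ± 0.62 between the normal groups, adjusted p = 9.86e-29). C1rl was lower in HEC than in BEC normal (−1.54, adjusted p = 8.92e-11), as were Itgb2 (−1.44, adjusted p = 1.5e-15) and C3ar1 (−1.92, adjusted p = 1.39e-12), and by mean value these 3 were higher still in BEC tumour (395, 3678 and 3799) than in BEC normal (270, 1386 and 479).

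HECs held more of another group. The soluble lectins Colec11 (4.35 ± 0.46, adjusted p = 4.67e-20) and Fcna (2.55 ± 0.29, adjusted p = 1.18e-17) were higher in HEC normal than in its BEC counterpart, and so was Hc, which encodes C5 (1.45, adjusted p = 0.000959). Vtn, an inhibitor of the terminal pathway, was at 0 in BEC normal and at 75.3 to 92.3 in HEC normal, at least 7.44-fold higher. Thbd, thrombomodulin, stood at 41837 to 46408 in HEC normal and at 64796 to 66313 in HEC tumour. It stood at 25988 to 27229 in BEC normal and at 17844 to 18203 in BEC tumour. The log2 fold change was 0.75 between the normal groups, under 2-fold, and 1.86 ± 0.05 between the tumour groups. Cd46, a membrane cofactor, was low but higher in HEC than in BEC tumour (3.18 ± 0.61, adjusted p = 8.26e-07). There HEC tumour replicate 3 held 204 against 73.9 and 49.3 in the others (2.36, adjusted p = 5.33e-05, without that library). Cd46 shares 14.2% of its exon bases with A330023F24Rik on the other strand. C8a, a chain of the membrane attack complex, was called higher in the same comparison (adjusted p = 3.44e-05) but stood at 13.3 to 42.7 and at 0 in BEC tumour, and without HEC tumour replicate 1 or 2 it was under the filter.

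With tumour in HECs the 3 called higher were Cd46 (1.58, adjusted p = 0.0222), C1s2 (1.0, adjusted p = 0.0348) and C1qc (adjusted p = 0.00953), the last at 0, 3.95 and 4.43 in HEC tumour, close to 1 step. The value of Cd46 rests on HEC tumour replicate 3, without which it was 0.76 (adjusted p = 0.278), and the call was also lost without HEC normal replicate 1 (adjusted p = 0.0819) or 2 (adjusted p = 0.069). That of C1s2 was lost without any 1 of the 6 HEC libraries (log2 fold changes from 0.85 to 1.14, adjusted p from 0.0583 to 0.19). Clu, the fluid-phase inhibitor clusterin, fell by 1.16 on the log2 scale (adjusted p = 5.07e-05), from 1276 to 1409 in HEC normal to between 471 and 668 in HEC tumour. Cr1l, the rodent membrane regulator also known as Crry, stood at 2894 or above in every endothelial library and was called in no comparison between them (log2 fold changes from −0.59 to 0.49). C1rb, the near copy of C1ra, was not called either.

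In EO771 cells 16 of the 48 could be tested, of which 3 were called higher and none lower by DESeq2, against 2.38% and 7.79% of all genes, with a median of −0.06, and 3 (Clu, C1rl and C3ar1) were lower at an unadjusted p under 0.05. The 3 called higher were Cd46 (1.44 ± 0.38, adjusted p = 0.000645), which stood at 14.8, 13.4 and 24.6 with vehicle and 45.2, 45.3 and 52.2 with 12-HETE, Colec12 (1.43, adjusted p = 0.00528) and Cfp (1.11, adjusted p = 0.0126). The call of Colec12 was lost without vehicle replicate 2 (0.98, adjusted p = 0.000358) or 12-HETE replicate 3 (1.34, adjusted p = 0.0515), and that of Cfp without vehicle replicate 1 (adjusted p = 0.0727) or 12-HETE replicate 1 (adjusted p = 0.0739) or 2 (adjusted p = 0.153). Cr1l stood at 1473, 1404 and 1497 with vehicle and 1992, 2123 and 2066 with 12-HETE (0.50 ± 0.09, adjusted p = 4.54e-08), which was under 2-fold. By value these 2 membrane regulators were thus higher with 12-HETE, while C3, C4b and C2 fell. Other regulators of the list went the other way by value, Clu (−0.52, adjusted p = 0.000862) under 2-fold and Cfi (−0.46, adjusted p = 0.222). C1qbp was at 0.03.

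Interferons induce several of the 9 genes, and interferon-stimulated genes were set beside them. In EO771 cells 29 of 30 such genes were called lower and none higher, against 7.79% and 2.38% of all genes tested, with a median of −4.74, and 0 were higher at an unadjusted p under 0.05. Irf1, a transcription factor that interferons induce, fell by 1.44 ± 0.10 on the log2 scale. C4b, at −4.94, lay near the median of that list, and C2 and C3 lay well above it. C1ra (−0.68), C1s1 and Cd59a were not called. Cfb, under the filter, held 39 counts with vehicle against 1 with 12-HETE. In HECs with tumour 23 of the 30 were called lower and none higher, against 3.21% and 4.58% (median −1.47), with 0 higher at an unadjusted p under 0.05, and Isg15 fell by 1.92 ± 0.13. There C1s1 rose, and Cd59a was called lower at the edge of the 2-fold limit (−1.0). The others were not called, with Cfb at −0.76, C3 at 0.47 and C4b at 0.12. In BECs with tumour 15 of the 30 were called lower and 3 higher, against 10.8% and 12.4% (median −0.94), with Isg15 at −1.95 ± 0.13, while C4b, Cfb, C1s1 and Serping1 rose.

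Irf1 stood at 2057 to 5518 in the endothelial libraries and was called in no comparison between them. Irf7 fell with tumour in both cell types, by 1.05 ± 0.14 in HECs and by 1.58 ± 0.14 in BECs. Of 21 receptors and factors of interferon and cytokine signalling, 1 was called higher and 1 lower with tumour in BECs, against 12.4% and 10.8% of all genes. In HECs 0 were called higher and 2 lower, against 4.58% and 3.21%, and in EO771 cells 0 and 6, against 2.38% and 7.79%. Among receptors, Il6st, the shared chain of interleukin-6 type receptors, rose with tumour in BECs (1.27 ± 0.28, adjusted p = 2.56e-05), and the value in HECs was 0.94 (adjusted p = 0.00373), under 2-fold. Ifngr1 and Ifnar1, chains of the interferon receptors, were called with tumour in neither cell type and in EO771 cells gave −0.06 and 0.24. Whether interferon signalling had a part in the complement values was not tested.

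**Figure D5:**
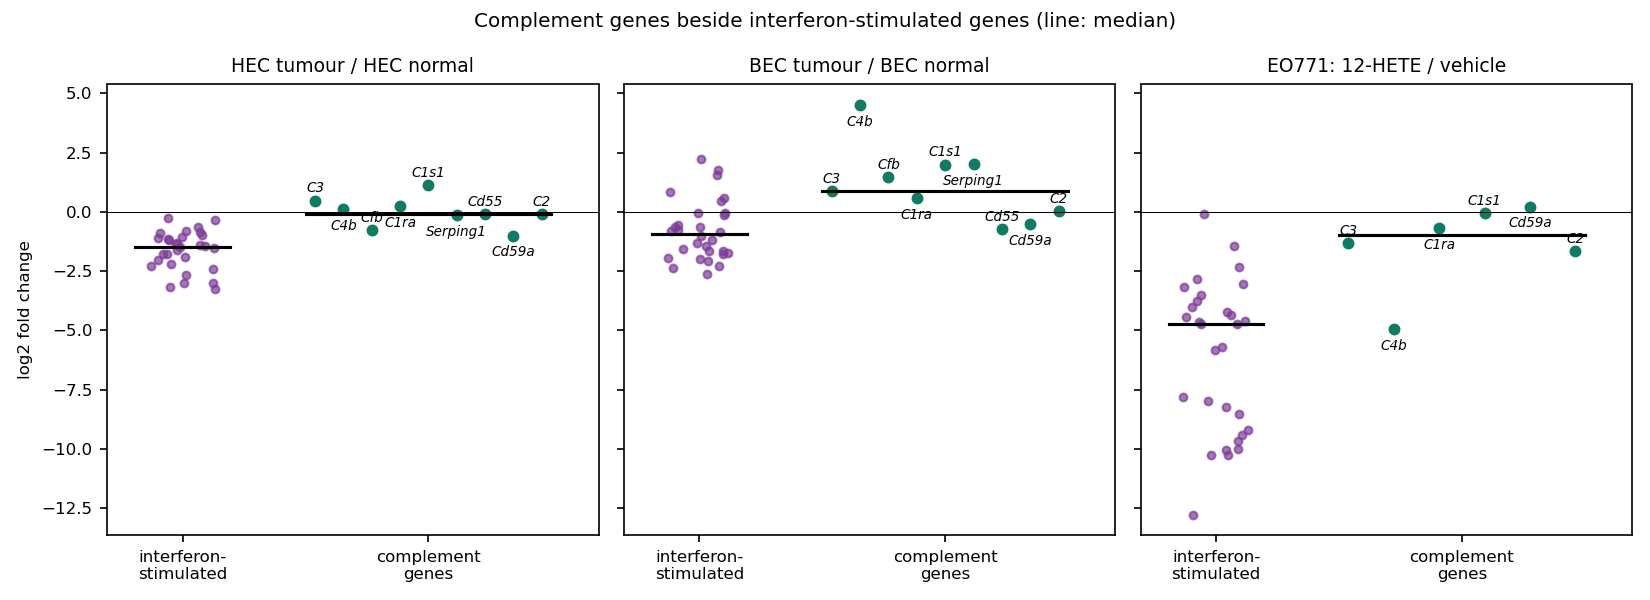
Log2 fold change (y axis) of 30 interferon-stimulated genes (purple) and of the tested complement genes (green, named) in 3 comparisons, with lines at the medians. The interferon-stimulated medians are −1.47, −0.94 and −4.74, and those of the complement genes are −0.09, 0.88 and −0.997.

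Per length, the order of the 9 differed between cells. After C3, BEC normal held most Cd55 (332 normalised values per kb), C1ra (329) and Cd59a (303). HEC normal held Cd59a (358) and Cfb (352) close behind C3 (366), and BEC tumour held C1ra (487) and C1s1 (288). C4b was last in both BEC groups, at 1.41 and 31.7, and Serping1 was last in both HEC groups, at 14.8 and 13.6. In EO771 cells given vehicle the order began with C1s1 (589 normalised counts per kb), C3 (290) and C1ra (254). The levels in EO771 cells come from a table with its own normalisation and are not set against the endothelial ones.

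Genes with a like pattern were sought among all endothelial genes tested, by the root mean square difference of log2 values, centred on each gene's mean, over the 12 libraries. For C3 these were Atp6v0a1 (0.151) and Tmppe (0.197), against a spread of 0.734 of C3 itself. For C4b they were Lama1 (0.534) and Gucy1a2 (0.574), and for Cfb Pgbd5 (0.282) and Gm14091 (0.284). C1ra was nearest to Vps52 (0.119) and Sptan1 (0.135), C1s1 to Hmcn1 (0.324) and Gm16576 (0.33), and Serping1 to Dhcr7 (0.547) and Gm49450 (0.598). Cd55 was nearest to Mex3a (0.111) and Hspd1 (0.119), Cd59a to Trafd1 (0.256) and Sik3 (0.261), and C2 to Lrrc8b (0.225) and Arhgap1 (0.23). None of the 9 was among the 2 genes nearest to another of them.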

How the data were processed

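RNA was sequenced in 12 endothelial and 6 EO771 libraries. The authors aligned reads with STAR to GRCm38 and counted fragments with featureCounts. Values deposited for endothelial libraries, whole numbers in steps of about 3.7, were taken as estimated counts. The authors deposited raw counts for EO771. Labels and methods name different library kits, and the strand setting and removal of duplicates for expression are not given in the sources used here. Genes with a mean of at least 10 were tested in DESeq2 1.42.0 under R 4.3.3 (two-sided Wald test, Benjamini-Hochberg over all genes tested), with 1 fit per table, and edgeR 4.0.16 was an alternative. The interaction is the tumour change in HECs less that in BECs. Normalised values are deposited values over DESeq2 size factors. CPM were computed from deposited totals. All values are given for 3 libraries a group; nothing states that replicates were separate animals or cultures, so p-values measure the spread between these libraries, and intervals cover counting error only. Same-numbered EO771 libraries deviated together in all 3 pairs (correlations 0.111 to 0.328), so the numbers were taken to pair them. The reported EO771 fit left this pairing out, and a replicate block was an alternative. The block changed no EO771 call of C3, C4b, C2, C1ra, C1s1 or Cd59a. Among all genes tested, 808 were called lower with the block against 904 without it, and 275 higher against 276. Values with the block are not given here for other complement or interferon-stimulated genes.

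All 9 genes, the near copies, set receptors and regulators, up to 5 called complement genes a direction by Wald statistic, and the 2 genes most like each were named. Some genes under this rule are not reported here. The genes and lists were chosen with earlier results of these data known. Scripts were tested on simulated data. Alternatives were another test, size factors from library totals, no filter, adjusted p alone, leaving out each library, a replicate block, division by the step, only the compared groups, repeated symbols summed and, added after seeing the data, near copies summed and, for other complement genes, leaving out each library.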

Additional observations from a re-analysis of the deposited data

Results flagged for a closer look

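The tumour change differed between HECs and BECs, by the interaction term of the DESeq2 fit, for 3 of the 9 genes: C4b (−4.38 on the log2 scale), Cfb (−2.23) and Serping1 (−2.14). The value for Serping1 rests on BEC tumour replicate 2, without which it was −1.17 (adjusted p = 0.23), and that for C4b on a BEC normal level of 1 to 3 steps per library.

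Among the other complement genes, the change in HECs was above that in BECs for Thbd (1.11), Masp1 (2.67), Cd59b (10.33) and Masp2 (6.68). It was below that in BECs for Cfp (−2.14), C3ar1 (−2.66), C1qc (−11.34), Colec11 (−2.95) and C1s2 (−3.27). The values for Cd59b, Masp2 and C1qc are fitted against libraries at or near 0, depend on the software and are not bounds, and without BEC normal replicate 1 both Cd59b and Masp2 were under the filter on low values. Masp2 shares 54.9% of its exon bases with Tardbp on the other strand.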

How the results depend on the processing

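Of 19 called values of the 9 genes, 15 kept their direction and their call under every alternative other than a call by adjusted p alone. The exceptions were Serping1 in BECs and in the interaction, Cd59a in HECs, and C2 between the normal cell types.

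A call by adjusted p alone gave, against the counts reported, 4 lower between HEC and BEC normal, 1 higher and 5 lower between HEC and BEC tumour, 2 higher and 2 lower with tumour in HECs, 1 lower with tumour in BECs, and 1 higher and 5 lower in the interaction. Adjusted p alone also added C3 and C1ra to the genes higher with tumour in BECs, and C1ra to those lower in EO771 cells. The count of members called lower with tumour in HECs, 1 as reported, was 0 with library totals, with the replicate block (Cd59a −0.99), with near copies summed and after division by the step. Leaving out each library gave 1 to 2 called lower between HEC and BEC normal and 0 to 1 with tumour in HECs.

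Signs turned for values near 0 that were not called. Leaving out each library gave C1s1 −0.14 to 0.06 between HEC and BEC normal (0.24 with near copies summed). It gave C4b −0.36 to 0.36, Serping1 −0.57 to 0.35 and C2 −0.36 to 0.14 with tumour in HECs. It gave C2 −0.06 to 0.11 with tumour in BECs and −0.40 to 0.10 in the interaction. The cause was not tested beyond the libraries left out.

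Deviations of same-numbered endothelial libraries correlated above 0.1 in 1 of 18 pairs (−0.028 to 0.126). For libraries with different numbers this held in 1 of 36 pairs (−0.17 to 0.116). Whether equal numbers share an origin is not settled by these values, and the reported fit left pairing out. The replicate block changed no call of the 9 genes other than that of Cd59a. Few fragments limit C4b in BEC normal, Serping1 in HECs and Cfb in EO771.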
